A study of Homo sapiens with 2 samples.

Results

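The genes of the mitochondrial ribosomal proteins were taken as every gene symbol made of MRPL (large subunit) or MRPS (small subunit), a number and at most 1 further letter. This gave 78 of the 57485 genes listed, 48 MRPL and 30 MRPS. One of the MRPS symbols, MRPS16P, is a pseudogene and had 0 counts in both libraries, which allows up to 3 counts in each. The other 77 genes (48 MRPL and 29 MRPS) all reached 1 FPKM (fragments per kilobase of transcript, scaled to the depth of the library) in at least 1 library, as did 14859 genes in all.

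RNA was from ARP1, a human multiple myeloma cell line, carrying a lentiviral TRIPZ vector that expresses an shRNA against SRD5A1, a steroid 5α-reductase, when doxycycline (Dox) is present. There was 1 library labelled without Dox (untreated) and 1 labelled with Dox, so differences have no replicate check and no p-value was computed from replicates. The genotype label of the library with Dox names SRD5A2, while its title names SRD5A1. The dose and the duration of Dox were not given in the sources used here. Dox itself and the induced hairpin cannot be told apart, because both libraries come from cells with the hairpin and it is switched on by Dox.

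The libraries held 45918570 and 48728927 expected counts, without and with Dox. SRD5A1, the target of the hairpin, stood at 13.0 FPKM without Dox and at 25.9 FPKM with Dox, which goes against the label of a knockdown, so each direction below is that between libraries as labelled. Of 10 plasma cell markers 9 reached 1 FPKM, at 15.7 to 5444 FPKM without Dox and 26.6 to 3515 FPKM with Dox, while 5 of 14 markers of other cells did, at most at 2.15 FPKM, and CD3D had 0 counts. In bulk RNA, fewer cells of a type and less RNA per cell cannot be told apart.

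Mitochondrial ribosomes make the few proteins encoded by mitochondrial DNA, all of them subunits of the respiratory chain and ATP synthase. Their RNA is transcribed from mitochondrial DNA, whereas all of their proteins are encoded in the nucleus, made in the cytosol and imported. Many of these proteins have bacterial homologues and others were gained in mitochondria. Dox, a tetracycline, binds the bacterial small subunit and also inhibits mitochondrial translation.

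Most mitochondrial ribosomal protein genes were lower in the library with Dox, in both subunits and by similar amounts. The log2 ratio of FPKM, with Dox over without (0.1 added to each value), was below 0 for 62 of 77 genes, against 41.5% of all genes tested. The median log2 ratio was -0.38 (order-statistic interval -0.49 to -0.18), with quartiles of -0.73 and -0.06, against 0.15 for all genes tested. Together the genes took 0.532% of the counts without Dox and 0.422% with Dox. The values depend on the scale. With TMM factors, which were applied to counts with no length, the median of all genes tested was -0.04 and that of the members -0.57. With TPM they were 0.25 and -0.28. Only a change of the library total shifts all genes alike, while FPKM and the count scales can differ from gene to gene. The members lay 0.53 to 0.54 below the median of all genes on each of the 5 scales (FPKM, TPM, CPM, which is the count scaled to the library total with no length, TMM and DESeq2 factors), with 66 to 68 of 77 below it.

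The medians of the large and the small subunit were alike. MRPL genes had a median log2 ratio of -0.38 (-0.55 to -0.17), and 40 of 48 were below 0. MRPS genes had a median of -0.38 (-0.60 to -0.06), and 22 of 29 were below 0. The medians differed by 0.0033 on the log2 scale, while the quartiles of either subunit spanned far more, from -0.80 to -0.08 in MRPL and from -0.62 to -0.04 in MRPS. The sign of the difference depended on the processing. MRPL minus MRPS was 0.17 once the median of other genes of like GC content and level was subtracted from each gene, -0.09 on CPM, and -0.22 without the members whose exons overlap another tested gene.

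As levels, MRPL genes had a median of 79.3 FPKM without Dox and 56.6 with Dox, and MRPS genes a median of 66.4 and 47.8 FPKM. Summed over the subunit, MRPL went from 4258 to 3239 FPKM, a log2 ratio of -0.39 (-0.41 to -0.38, counting error only). MRPS went from 2038 to 1644 FPKM, a log2 ratio of -0.31 (-0.32 to -0.30). The summed FPKM of MRPL was 2.09 times that of MRPS without Dox and 1.97 times with Dox. Intervals of genes and sums are 95% intervals by the exact Clopper-Pearson method and cover counting error only. Order-statistic intervals of medians take genes as independent draws and hold no error between libraries or cultures.

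**Figure D1:**
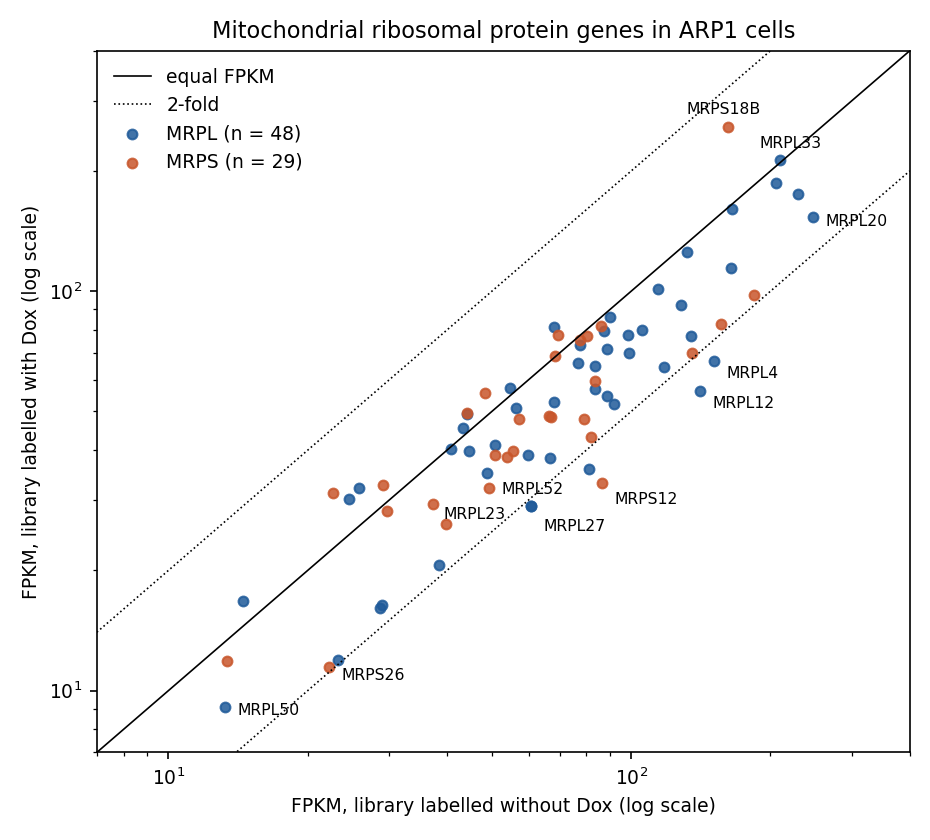
FPKM of each of the 77 mitochondrial ribosomal protein genes in the library labelled without Dox (x axis, log scale) and with Dox (y axis, log scale), with lines of equal FPKM and of a 2-fold difference. Most points lie under the line of equal FPKM in both subunits, MRPS12 and MRPL12 lie farthest under it, and MRPS18B lies farthest above it.

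By size, 6 genes were lower with Dox by more than 2-fold (5 MRPL and 1 MRPS), a share of 7.79% against 6.41% of all genes tested, which is near the background. None was higher by more than 2-fold, against 17.0% of all genes tested. Past 1.5-fold, 25 were lower (16 MRPL and 9 MRPS), a share of 32.5% against 15.4% of all genes tested. Only MRPS18B was higher by more than 1.5-fold, against 29.3% of all genes tested. These shares of higher genes include genes with a mean under 5 FPKM, where no member lies. The 4647 such genes with a GC content had a median log2 ratio of 0.45. The share of higher genes at the levels of the members was not computed. With TMM factors 18 members were lower by more than 2-fold and none higher, while of all genes tested 9.12% were lower and 12.2% higher. MRPS18B had a log2 ratio of 0.48 on that scale, short of 1.5-fold.

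The 6 genes past 2-fold came from several places on the ribosome. MRPS12, the homologue of the bacterial protein of the decoding centre in which streptomycin resistance arises, was listed with 86.4 FPKM without Dox and 33.1 with Dox, a log2 ratio of -1.38 (-1.48 to -1.29). MRPL12, which forms the flexible stalk that calls in elongation factors, was listed with 141 and 56.2 FPKM, a log2 ratio of -1.32 (-1.40 to -1.25). MRPL4, which lines the exit tunnel of the large subunit, was listed with 151 and 66.8 FPKM (-1.17, -1.23 to -1.12).

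Their places among the 77 genes shifted accordingly. MRPL12 was the 11th highest gene without Dox and the 35th with Dox, MRPL4 moved from 10th to 28th and MRPS12 from 26th to 59th. The remaining genes past 2-fold were at lower levels than these 3 without Dox. MRPL52, a protein gained in mitochondria, was listed with 80.9 and 35.9 FPKM (-1.17, -1.28 to -1.06). MRPL23, at the rim of the exit tunnel, was listed with 60.7 and 28.9 FPKM (-1.07, -1.21 to -0.92). MRPL27, the homologue of a bacterial protein that reaches towards the peptidyl transferase centre, was listed with 60.8 and 29 FPKM (-1.07, -1.19 to -0.94). The counting intervals of MRPL23 and MRPL27 reach past the 2-fold line at -1, and those of the other 4 do not.

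In GRCh38 with the GENCODE release 29 annotation, MRPS12 lies on chromosome 19 from 38930548 to 38933162 and MRPL4 on chromosome 19 from 10251901 to 10260045. MRPL12 lies on chromosome 17 from 81703357 to 81707526 and MRPL27 on the reverse strand of chromosome 17 from 50367857 to 50373214. MRPL52 lies on chromosome 14 from 22829879 to 22835037 and MRPL23 on chromosome 11 from 1947278 to 1984522. MRPS18B, the gene with the highest log2 ratio, lies on chromosome 6 from 30617709 to 30626395. Besides MRPL27, these genes are on the forward strand.

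The promoters printed are those of genes lower by more than 2-fold, and of MRPS18B, the gene with the highest log2 ratio. The genes were picked by their ratios, so the direction that the lower genes share is no finding. Each promoter is the 250 bases before the RefSeq start of the gene in GRCh38.p14, 5′ to 3′ on the strand of the gene. The GENCODE coordinates above put the start of each of these genes further upstream. The MRPS12 window lies wholly inside the gene by GENCODE, and the other windows run past its GENCODE start in part. Capitals mark exact matches on either strand to motifs known from promoters of mitochondrial genes, GCATGCGC (NRF1), CCGGAAG (ETS factors, GABP among them) and AAGATGGC (YY1), and a match that runs past the start is shown in part. MRPL23 is not shown. The windows are chr19:38930694-38930943 for MRPS12, chr17:81703117-81703366 for MRPL12, chr19:10251701-10251950 for MRPL4, chr14:22829637-22829886 for MRPL52, chr17:50373185-50373434 for MRPL27 (reverse strand) and chr6:30617590-30617839 for MRPS18B.
MRPS12: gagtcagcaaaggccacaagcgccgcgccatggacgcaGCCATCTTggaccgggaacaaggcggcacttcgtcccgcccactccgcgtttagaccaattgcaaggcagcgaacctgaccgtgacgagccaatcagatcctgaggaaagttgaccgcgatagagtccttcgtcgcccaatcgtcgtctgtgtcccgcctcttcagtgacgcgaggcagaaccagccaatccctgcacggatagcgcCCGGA
MRPL12: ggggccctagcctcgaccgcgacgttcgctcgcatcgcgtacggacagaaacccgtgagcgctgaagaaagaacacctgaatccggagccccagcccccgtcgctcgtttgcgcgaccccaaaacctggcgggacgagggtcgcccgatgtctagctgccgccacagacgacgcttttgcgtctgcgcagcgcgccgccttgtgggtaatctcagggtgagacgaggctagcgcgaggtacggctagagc
MRPL4: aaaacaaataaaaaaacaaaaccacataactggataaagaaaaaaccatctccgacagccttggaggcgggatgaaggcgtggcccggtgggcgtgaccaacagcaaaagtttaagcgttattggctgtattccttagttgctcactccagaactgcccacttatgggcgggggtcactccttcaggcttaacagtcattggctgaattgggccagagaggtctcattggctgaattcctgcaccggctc
MRPL52: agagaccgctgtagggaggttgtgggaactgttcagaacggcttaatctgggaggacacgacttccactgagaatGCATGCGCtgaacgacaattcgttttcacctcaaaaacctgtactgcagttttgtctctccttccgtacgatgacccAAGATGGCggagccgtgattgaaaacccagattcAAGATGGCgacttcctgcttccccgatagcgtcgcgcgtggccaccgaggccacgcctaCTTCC
MRPL27: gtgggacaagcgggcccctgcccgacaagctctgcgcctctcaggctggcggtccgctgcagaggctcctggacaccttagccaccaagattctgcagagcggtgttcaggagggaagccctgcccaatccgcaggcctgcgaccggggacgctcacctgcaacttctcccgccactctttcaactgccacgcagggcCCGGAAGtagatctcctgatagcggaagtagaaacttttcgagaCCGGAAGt
MRPS18B: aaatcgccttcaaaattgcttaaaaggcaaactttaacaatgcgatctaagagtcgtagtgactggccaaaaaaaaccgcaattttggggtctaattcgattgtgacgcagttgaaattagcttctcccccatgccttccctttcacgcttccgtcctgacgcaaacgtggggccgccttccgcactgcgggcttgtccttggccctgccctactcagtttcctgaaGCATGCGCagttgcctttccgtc

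MRPL52 holds all 3 motifs in its window and MRPL12 and MRPL4 hold none, although all 3 genes were lower by more than 2-fold. MRPS12 holds an ETS match at its start and a YY1 match, MRPL27 holds an ETS match at 2 places, and MRPS18B, which was higher, holds an NRF1 match in the printed bases and a YY1 match after the start. Over 300 bases (250 before the start and 50 after), 68 of the members had a RefSeq promoter. A YY1 match was in 29.4% of them, against 3.03% of all 27305 promoters and 5.94% of those of tested genes. An ETS match was in 41.2%, against 10.7% and 20.4%, and an NRF1 match in 8.82%, against 3.27% and 5.91%.

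Other motifs were no more frequent in the members than in promoters of tested genes. GGGCGG (SP factors) was in 60.3% of members and 70.3% of tested genes, and CCAAT (NFY) in 29.4% and 37.3%. CACGTG (the E-box read by MYC) was in 8.82% and 10.4%. TGATGNAA (the element read by ATF4) was in 1 member promoter and TGACGTCA (CRE) in 0. All motifs were searched on both strands. An ETS and a YY1 match can overlap, since the first ends in the AAG with which the second starts, and a match is only a description of the letters in the window. Members with an ETS match had a median log2 ratio of -0.19 and those without it -0.47, and for YY1 the medians were -0.51 and -0.36, so the matches did not order the genes in 1 direction.

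**Figure D2:**
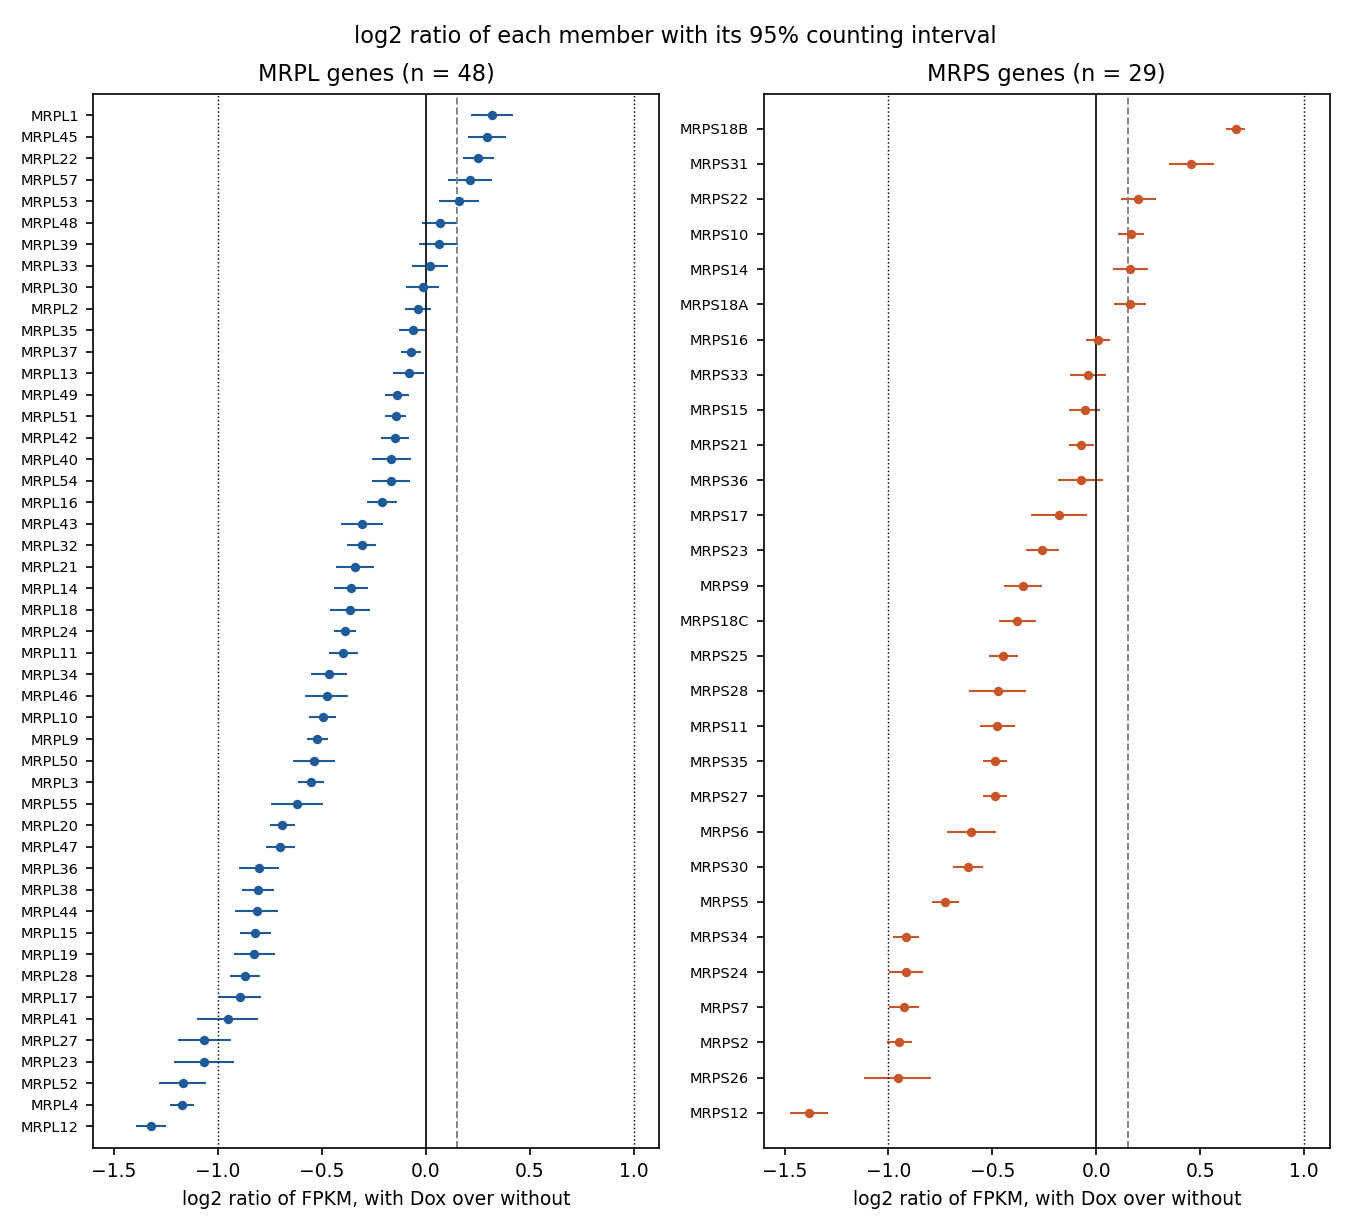
log2 ratio of FPKM, with Dox over without, of each MRPL (left) and MRPS gene (right) in order, with bars for the 95% counting interval. The solid line marks 0, the dotted lines a 2-fold difference and the dashed line the median of all genes tested, 0.15. In both subunits the genes run from past -1 to above 0, and MRPS12 and MRPS18B stand at the ends of MRPS.

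In the large subunit, the next lowest genes after those past 2-fold were MRPL41 at 23.2 and 11.95 FPKM (-0.95) and MRPL17 at 38.4 and 20.6 FPKM (-0.89). The highest log2 ratio was that of MRPL1, a protein of the stalk near the tRNA exit site, at 25.8 and 32.2 FPKM (0.32, 0.22 to 0.42). MRPL45, which sits at the exit tunnel by the inner membrane, followed at 24.5 and 30.1 FPKM (0.29). MRPL22 was listed with 68.1 and 81.2 FPKM (0.25), MRPL57 with 14.5 and 16.8 FPKM (0.21) and MRPL53 with 44.1 and 49.3 FPKM (0.16). No MRPL gene was higher by as much as 1.5-fold.

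In the small subunit, MRPS26 was listed with 22.3 and 11.4 FPKM (-0.96), MRPS2 with 135 and 70.0 FPKM (-0.95), MRPS7 with 81.8 and 43.0 FPKM (-0.93) and MRPS24 with 157 and 83.0 FPKM (-0.92). MRPS34 was close to them, at 185 and 97.7 FPKM (-0.92). These genes and MRPS12 were each lower by more than 1.5-fold. At the other end, MRPS18B was listed with 162 FPKM without Dox and 258 with Dox, a log2 ratio of 0.67 (0.63 to 0.72). It went from the 8th highest of the 77 genes to the 1st. MRPS31 was listed with 22.7 and 31.2 FPKM (0.46, 0.35 to 0.56), MRPS22 had a log2 ratio of 0.20, MRPS10 of 0.17 and MRPS14 of 0.16.

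MRPS18B has a pair of paralogs that did not share its difference. MRPS18A was listed with 69.6 and 77.9 FPKM (0.16) and MRPS18C with 50.7 and 38.9 FPKM (-0.38), so the 3 paralogs of the bacterial protein S18 spread over both directions. MRPS18A and MRPS30 sit in the large subunit in spite of their names, as the RefSeq synonyms give them. The rule goes by name and so also holds MRPS36, at 29.6 and 28.1 FPKM (-0.08). MRPS36 was left out where subunits were taken by position. MRPS30 was listed with 49.3 and 32.1 FPKM (-0.62), and its relative MRPL37 with 132 and 125 FPKM (-0.07).

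Levels spanned 13.3 to 247 FPKM without Dox and 9.11 to 258 FPKM with Dox, and the order of the genes was largely shared between libraries (Spearman rho 0.87 over 77 genes, which are not independent replicates). The highest MRPL genes by mean FPKM were MRPL33 (210 and 213 FPKM), MRPL24 (230 and 176), MRPL20 (247 and 153), MRPL51 (206 and 186) and MRPL2 (165 and 161). Of these, MRPL33 and MRPL2 had counting intervals that held 0 (log2 ratios of 0.02 and -0.04), while MRPL20 was lower by more than 1.5-fold (-0.69). The highest MRPS genes were MRPS18B, MRPS34, MRPS24, MRPS2 and MRPS21, the last at 85.9 and 81.8 FPKM (-0.07). The lowest were MRPL50, at 13.3 and 9.11 FPKM (-0.54), MRPS17, at 13.4 and 11.8 FPKM (-0.18), and MRPL57. All 77 genes had at least 491 counts in each library, so the counting interval was at most 0.32 wide on the log2 scale, and it lay below 0 for 56 genes, above 0 for 11 and held 0 for 10. Such shares were not computed over all genes tested.

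Among the site lists chosen here, that of the decoding region and head of the small subunit had the lowest median. That list held 8 genes with a median log2 ratio of -0.82 (order-statistic interval -1.38 to 0.17). Of these, 5 (MRPS12, MRPS2, MRPS7, MRPS24 and MRPS5) were lower by more than 1.5-fold. All 8 listed genes have a bacterial homologue, so small subunit proteins gained in mitochondria are not in this list. Other choices of genes for this site were not tried, so the order of the sites holds for these lists only. MRPS5 was listed with 79.1 and 47.8 FPKM (-0.73) and MRPS9 with 37.4 and 29.3 FPKM (-0.35). MRPS14, at 29.2 and 32.6 FPKM, and MRPS10, at 44.2 and 49.7 FPKM, were the 2 genes of this list above 0.

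The 8 genes listed around the exit tunnel had a median of -0.54 (-1.07 to 0.29) and split. With MRPL4, which lines the tunnel but was not in that list, the median was -0.70 over 9 genes. MRPL23, MRPL17, MRPL44 (28.9 and 16.4 FPKM, -0.81) and MRPL47 (88.6 and 54.5 FPKM, -0.70) were lower by more than 1.5-fold. MRPL24 had a log2 ratio of -0.39, while MRPL39 (0.06), MRPL22 and MRPL45 were above 0. Of 5 genes of the stalk that binds translation factors, with a median of -0.40, only MRPL12 was past 1.5-fold. MRPL53, at 0.16, was above 0. MRPL10 was listed with 98.8 and 70.0 FPKM (-0.50), MRPL11 with 105 and 80.1 FPKM (-0.40), and MRPL54 with 114 and 102 FPKM (-0.17).

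The central protuberance, the knob of the large subunit that faces the small subunit, was represented by 7 genes with a median of -0.39. MRPL27 and MRPL38 (66.7 and 38.1 FPKM, -0.81) were past 1.5-fold. MRPL46 (-0.48), MRPL18 (-0.36) and MRPL40 (-0.17) were below 0 and MRPL48, at 54.8 and 57.4 FPKM, was at 0.07. ICT1, the peptidyl-tRNA hydrolase of the same site, also called MRPL58, was listed with 52.2 and 39.7 FPKM (-0.39).

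The 46 genes with a bacterial homologue had a median log2 ratio of -0.47, with 40 below 0, and the 31 without one a median of -0.17, with 22 below 0. Within MRPL the medians were -0.48 over 30 genes and -0.16 over 18, and within MRPS -0.43 over 16 genes and -0.26 over 13. Of the MRPS18 paralogs this list holds MRPS18C. With MRPS18A and MRPS18B counted as homologues as well, a choice made after seeing the data, the order within MRPS turned (-0.37 over 18 genes and -0.45 over 11), and over all members the medians were -0.43 over 48 genes and -0.17 over 29. The order-statistic intervals of the 46 (-0.69 to -0.34) and the 31 genes (-0.49 to -0.04) overlapped. They take genes as independent draws, so neither overlap nor its absence tests a difference.

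Subunits of the mitochondrial ribosome that carry other names were on the same side. All 6 were below 0, and 5 of them with TPM. Of these, GADD45GIP1, at 42.5 and 19.3 FPKM (-1.13), was lower by more than 2-fold, and DAP3, a GTP-binding protein of the small subunit, was listed with 270 and 199 FPKM (-0.44). AURKAIP1 had a log2 ratio of -0.64, PTCD3 of -0.46 and CHCHD1 of -0.09. The RNA components, in these poly(A)-selected libraries, differed in sign. MT-RNR1, the RNA of the small subunit, was listed with 1138 and 1348 FPKM (0.24) and MT-RNR2, that of the large subunit, with 3847 and 3247 FPKM (-0.24). With TMM factors the values were 0.03 and -0.46.

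The genes of the cytosolic ribosome, which shares no protein with the mitochondrial one, lay near 0 on FPKM. Over 79 cytosolic ribosomal protein genes the median log2 ratio was 0.04, with 34 below 0, none past 2-fold and 2 lower by more than 1.5-fold. The median was 0.02 over 47 RPL genes, from RPL7A at -0.68 and RPL38 at -0.30 to RPL26 at 0.27 and RPL12 at 0.39, and 0.06 over 32 RPS genes, from RPS26 at -0.76 and RPS18 at -0.29 to RPS27 at 0.22 and RPS15A at 0.25. The order-statistic interval of RPL (-0.06 to 0.07) lay above that of MRPL, while that of RPS (-0.07 to 0.09) just met that of MRPS. These intervals take genes as independent draws, which genes of 1 complex are not, so their positions test no difference. The sign of the cytosolic medians turns with the scale: with TMM factors they were -0.22 and -0.16, with 40 of 47 RPL and 32 of 32 RPS genes below 0, and with TPM 0.12 and 0.15.

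**Figure D3:**
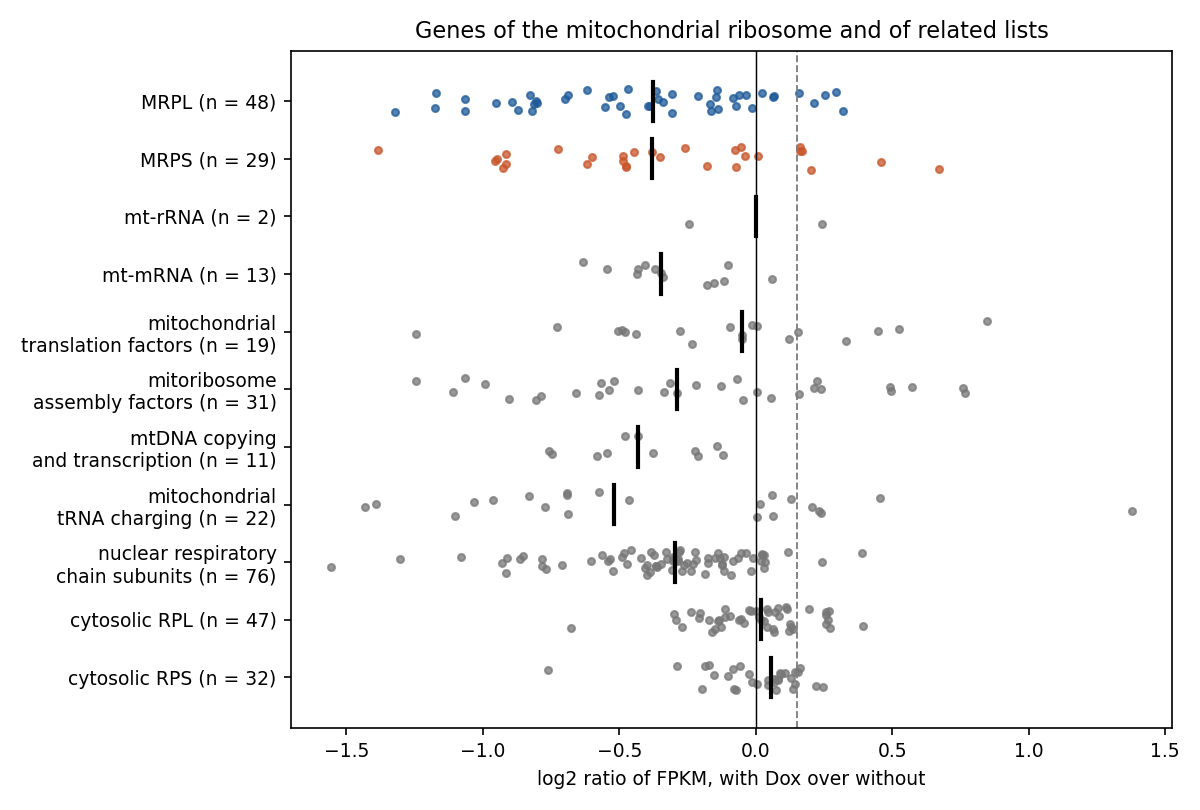
log2 ratio of FPKM, with Dox over without, of single genes (points) in the MRPL and MRPS genes and 9 related lists, with the median of each list as a black bar, 0 as a solid line and the median of all genes tested (0.15) as a dashed line. Points are spread vertically at random to separate them. The medians of MRPL, MRPS, mt-mRNA and nuclear respiratory chain subunits lie between -0.38 and -0.30, those of cytosolic ribosomal proteins at 0.02 and 0.06.

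The mRNAs that the mitochondrial ribosome reads, and the nuclear genes whose proteins join its products, were mostly below 0 too. Of 13 mitochondrial mRNAs 12 were below 0 (median -0.35), from MT-ND5 at 2067 and 1334 FPKM (-0.63) and MT-ND6 (-0.54) to MT-ND1 (-0.10) and MT-ND3 at 5203 and 5417 FPKM (0.06). Of 76 nuclear genes of respiratory chain subunits 67 were below 0 (median -0.30), and 3 were lower by more than 2-fold, a share of 3.95%, below that of all genes tested. They were NDUFB10 (196 and 66.6 FPKM, -1.56), NDUFS5 (511 and 207 FPKM, -1.31) and NDUFB2 (120 and 56.6 FPKM, -1.08), where NDUFB2 is named after its value was seen. The highest were NDUFB5 (73.4 and 96.2 FPKM, 0.39) and NDUFA5 (51.5 and 61.0 FPKM, 0.24). All 11 genes of mitochondrial DNA copying and transcription were below 0 (median -0.43), among them POLRMT, the mitochondrial RNA polymerase, at 38.8 and 22.9 FPKM (-0.76), and POLG, the mitochondrial DNA polymerase, at -0.75. Nearest to 0 were POLG2 at -0.14 and TFAM, which packs mitochondrial DNA, at -0.12.

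Genes that serve the mitochondrial ribosome were more mixed. The 19 genes of translation factors and mRNA partners had a median of -0.05, which turned to 0.05 with TPM, from C14orf156 (SLIRP, which holds mitochondrial mRNAs) at 267 and 112 FPKM (-1.24) and TUFM, the elongation factor Tu, at 210 and 126 FPKM (-0.73) to MTIF2 at 28.0 and 40.3 FPKM (0.52) and HEMK1 at 6.19 and 11.2 FPKM (0.85). The 31 assembly and rRNA-modifying factors had a median of -0.29, with 20 below 0. Of them 3 were lower by more than 2-fold, a share of 9.68% against 6.41% of all genes tested. They were MRM1 at -1.25, RPUSD3 at -1.11 and DHX30 at -1.07, where DHX30 is named after its value was seen. GTPBP10 and NSUN4 were at 0.76 and 0.77. The 22 genes that charge mitochondrial tRNAs had a median of -0.52 (-0.83 to 0.13) but split, with 12 below 0 and 10 above. Lower by more than 1.5-fold were 10, a share of 45.5% against 15.4% of all genes tested. Values ran from WARS2 (-1.43) and SARS2 (-1.39) to NARS2 (0.24) and GARS (1.38). Without GARS and KARS, which serve both compartments, the median was -0.52 over 20 genes and the highest value 0.45.

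GC content moved with the log2 ratio of the members. Across the 77 genes Spearman rho between log2 ratio and the GC content of the transcripts was -0.46, against -0.20 over 14227 tested genes with a GC content. The members' median GC content was 50.2%, against 49.6% over those genes, with 52.5% for MRPL and 47.6% for MRPS. The 11 members over 60% GC had a median log2 ratio of -0.95, against -0.13 for the other genes of that bin, while the 19 members from 40% to 45% GC had -0.08, against 0.29. In each of the 6 bins the median of the members lay below that of the other genes.

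After the median of the other genes of the same bin of GC content and mean FPKM was subtracted, the members' median was -0.31 (MRPL -0.26 and MRPS -0.43), and 62 of 77 were below 0. Again 6 members were past 2-fold, but not the same 6. MRPL4 (-0.89) and MRPL23 (-0.86) fell short, while MRPL19 (-1.08) and MRPL44 (-1.07) were past it. The log2 ratio of the members had no such relation to their level (rho -0.04, against -0.25 over tested genes). Among the 6747 other genes within the members' range of mean FPKM, from 11.2 to 211 FPKM, the median was 0.03, with 48.0% below 0 and 5.20% lower by more than 2-fold. The part of RNA quality or library preparation in these values was not tested.

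Transcript choice touched single members. In 6 of the 77 genes the mean transcript length, weighted by the estimated share of each transcript, was longer with Dox by more than 10%, and in 0 shorter by as much. The share over all genes tested was not computed, so the count cannot be called particular to the members. MRPS33, a small subunit protein, had 1786 and 2751 counts, yet 77.6 and 75.5 FPKM, while its mean length went from 744 to 994 bases. Its log2 ratio was -0.04 on FPKM and 0.54 on CPM. MRPL52 went from 717 to 831 bases, and its log2 ratio was -1.17 on FPKM and -0.88 on CPM, short of 2-fold. MRPL27 was also short of it on CPM (-0.97), where 4 members were past 2-fold. On both scales 59 of the 77 genes were below 0.

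Exons of 30 members overlap those of another tested gene, 9 of them on the same strand and 21 on the opposite strand only, and the strand of the reads is not stated, so such reads cannot be told apart. MRPS12 is one of them. It overlaps SARS2, the mitochondrial seryl-tRNA synthetase, on the opposite strand, which was listed with 26.9 and 10.2 FPKM (-1.39), close to the ratio of MRPS12 itself. MRPS14 overlaps CACYBP, at 251 and 116 FPKM (-1.11), although MRPS14 was above 0. Of 26 further pseudogene symbols of the MRPL and MRPS families, 3 had any count and none more than 6, so few reads were assigned to those copies.

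Protein-coding genes on the opposite strand that start within 1000 bases before the start of a member did not follow it as a group. There were 17 such pairs, with MRPL46 and MRPS11 facing each other and counted from both sides. Neighbours that start past the start of the member, and so overlap it, were not counted. SARS2, which overlaps MRPS12 and had a like ratio, is not among the pairs. The 16 tested neighbours had a median log2 ratio of 0.12, 8 below 0 and 8 above, beside -0.48 for their members, and 7 of the 16 had the sign of their member. MRPL52, at -1.17, faces SLC7A7, an amino acid transporter, at 1.48 and 3.84 FPKM (1.32). MRPL27, at -1.07, faces EME1, at 12.9 and 18.3 FPKM (0.50). MRPL30, at -0.02, faces MITD1, at 27.1 and 38.8 FPKM (0.51). MRPL46 and MRPS11 were both at -0.48, at 48.9 and 35.1 FPKM and at 55.4 and 39.8 FPKM.

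With edgeR's exact test, an assumed biological coefficient of variation of 0.4 and Benjamini-Hochberg adjustment over 19934 genes, none of the members was called, against 0.833% of all genes. The smallest log2 fold change that it called was 3.24 in size, beyond that of any member. With an assumed coefficient of 0.2 it called 11 members, all lower (MRPL4, MRPL12, MRPL23, MRPL27, MRPL38, MRPL41, MRPS2, MRPS12, MRPS24, MRPS26 and MRPS34), a share to be set beside 5.68% of all genes called lower. With 0.1 it called 43 lower and 1 higher, beside 19.6% of all genes called lower. These calls compare 2 libraries, not conditions, since the coefficient was assumed and not measured.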

How the data were processed

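Poly(A) RNA of 2 libraries was sequenced as paired reads of 150 bases each. For each gene, the authors deposited expected counts (estimated, so not all whole), TPM and FPKM values scaled by effective length and library total, and the transcript length and effective length behind them. Per the labels, the submitters' processing notes name Bowtie 0.12.2, HISAT2 2.1.0, StringTie 1.3.4d and hg19, with no role. Of 204675 listed transcripts, 202888 are in GENCODE release 29 (GRCh38), which gave coordinates and GC content. The deposited annotation columns were not used.

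The log2 ratio was computed on FPKM with a pseudocount of 0.1, which understates the change of low genes, over genes with at least 1 FPKM in 1 library. Genes past 2-fold and 1.5-fold were counted. Expected counts were rounded for the exact test of edgeR 4.0.16 (R 4.3.3, TMM, at least 10 counts over both libraries), and DESeq2 1.42.0 gave size factors for an alternative. With 1 library per condition the dispersion had to be assumed. Python 3.11.15, pandas 2.3.3, numpy 2.4.6, scipy 1.17.1 and matplotlib 3.10.9 were used for the rest. Promoters are from RefSeq.

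The members and lists were chosen with earlier results of these data known. The genes named are members past 2-fold, in each subunit the 5 highest and 5 lowest log2 ratios and the 5 highest and 3 lowest mean FPKM, members of the site and paralog lists, the 2 highest and 2 lowest log2 ratios of other lists among genes with at least 5 FPKM, and promoter neighbours, of which examples are given. Cell type markers are given by their range. Others are named beside overlaps, transcript lengths, edgeR calls or as examples, after their values were seen. In simulated data, 77 members lowered by 1 on the log2 scale were recovered with a median of -1.02. Of 200 genes changed 4-fold, edgeR called 130 at a true coefficient of 0.2 and 0 at 0.4, each among 19934 genes. The alternatives covered the pseudocount, the filter, the unit, the normalization, the assumed coefficient and the choice of members.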

Additional observations from a re-analysis of the deposited data

How the results depend on the processing

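The medians of MRPL, of MRPS and of all members stayed below 0 under each of the 14 alternatives tried, from -0.60 to -0.26, from -0.53 to -0.17 and from -0.58 to -0.28. The difference of the subunit medians ranged from -0.22 to 0.17. With TMM factors the median was -0.59 for MRPL and -0.57 for all members, 18 members were past 2-fold, and the summed log2 ratios were -0.59 (MRPL) and -0.46 (MRPS). With DESeq2 size factors these values were -0.60, -0.58, 18, -0.60 and -0.47. With TPM and on CPM 4 members were past 2-fold, against 6 on FPKM. With TPM the sums were -0.30 (MRPL) and -0.21 (MRPS), and on CPM MRPS was -0.25. Without members that have a pseudogene with counts the MRPL sum was -0.41, and with subunits of other names the MRPS sum was -0.34. By position in the ribosome, with MRPS36 left out, the MRPS sum was -0.33. Of the alternatives chosen after seeing the data, subtracting the median of all genes gave -0.53 for all members and 14 past 2-fold. Leaving out members that overlap another tested gene left 47, of which 17 were past 1.5-fold (26 of 77 with them). The sums were then -0.48 (MRPL) and -0.17 (MRPS). Subtracting medians of GC and level bins moved no median beyond its interval. It left 6 members past 2-fold, with MRPL19 and MRPL44 in place of MRPL4 and MRPL23. edgeR called 11 members with an assumed coefficient of 0.2 and 44 with 0.1 (43 lower and 1 higher, while 41.0% of all genes were called), against 0 with 0.4. These edgeR settings tested the same 77 members and differed only in the assumed coefficient. What moved the other values was not tested. Another pseudocount left 6 members past 2-fold, and with a pseudocount of 1 FPKM 25 were past 1.5-fold. The FPKM filters, counted among the 14 alternatives, kept the same 77 genes and so could not move these values. No paired analysis was possible because there was 1 library per condition, which also leaves no replicate to leave out. Depth was not the limit for these genes, which all had at least 491 counts.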
